A study of Mus musculus with 8 samples.

Results

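The 31 Hox genes described here are all rows of the deposited expression table whose gene name is Hox followed by the letter a, b, c or d and a number, out of 20976 genes in all. They comprise 11 genes of the HoxA cluster, 8 of HoxB, 9 of HoxC and 3 of HoxD. The gene annotation GENCODE M21 lists 8 further members, Hoxb1, Hoxb13, Hoxd1, Hoxd3, Hoxd10, Hoxd11, Hoxd12 and Hoxd13, which are not analysed here. The cells were muscle stem cells, sorted by flow cytometry from the muscle of mice whose Chd4 alleles carry loxP sites on both chromosomes. They were grown for a short time in medium with fetal calf serum and bFGF, infected in culture with an adenovirus, and frozen for RNA. The Cre group received an adenovirus encoding Cre recombinase, which deletes exons 12 to 21 of Chd4, the gene of an ATPase that drives the NuRD complex, a remodeller of chromatin. The GFP group, with the same loxP alleles, received an adenovirus encoding GFP, and each group holds 4 libraries from 4 mice. Cells with wild-type Chd4 alleles and Cre were not part of the design, so loss of Chd4 and exposure to Cre cannot be told apart. The labels do not say which muscles the cells came from.

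Hox genes encode homeodomain transcription factors that give cells of the embryo their position along the body axis and along the limb. Within a cluster the genes lie in the order in which they are used: low-numbered (anterior) paralogues act towards the head, and high-numbered (posterior) ones act towards the tail and, in the limb, towards the digits. Genes with the same number in different clusters are paralogues, descended from a common ancestral gene, and often act together. Adult muscle stem cells and fibroblasts keep much of the Hox pattern of the place they came from. Trithorax proteins keep Hox genes active and Polycomb proteins keep them silent.

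In all 8 libraries the marker genes of muscle stem cells and myoblasts were high, with Myod1 at 32634 to 47778 normalised reads in Cre libraries and 30708 to 40991 in GFP libraries, and Pax7 at 4381 to 6458 in Cre and 5390 to 6704 in GFP. Chd4, the targeted gene, had 3686, 5480, 5010 and 5134 normalised reads in Cre libraries 1 to 4, against 17886, 15904, 16634 and 20121 in GFP libraries 1 to 4 (log2 change -1.88, limma, adjusted p = 0.00328), so the groups did not overlap. The deposited values are reads per gene, scaled to a common size across libraries and rounded, with totals of 27897860 to 28876348 and an estimated original depth of 23.2 to 38.0 M reads. The summed smooth muscle and pericyte markers (5 of 5 in the table) stood at 56057 to 87811 in Cre and 24849 to 45078 in GFP. The separation came from Rgs5, at 23078 to 53834 in Cre and 6092 to 13761 in GFP, while Acta2 overlapped, at 18689 to 38590 in Cre and 16632 to 38419 in GFP. The endothelial list (4 of 5) stood at 276 to 408 in Cre and 141 to 182 in GFP, most of it Tek and Pecam1. Tek had 313, 243, 114 and 167 in Cre 1 to 4, against 115, 83, 31 and 81 in GFP 1 to 4. Its groups overlapped only through Cre 3 and GFP 1. Pecam1 overlapped more widely, at 44 to 130 in Cre and 40 to 102 in GFP. Tek, Pecam1 and Kdr were each higher in Cre within every number, while Cdh5 was not. The connective tissue list (5 of 7), mostly Gsn, stood at 5037 to 9151 in Cre and 3748 to 6844 in GFP. Its members differed in direction, with Ly6a at 346 to 565 in Cre and 60 to 144 in GFP, and Cd34 at 255 to 462 in Cre and 463 to 1244 in GFP. The blood list (2 of 5) stood at 89 to 396 in Cre and 28 to 243 in GFP, and the Schwann cell list (3 of 4) at 195 to 402 in Cre and 98 to 264 in GFP. Some markers of these types were near 0, with Dcn at 1 to 22, Cdh5 at 1 to 9 and Myh11 at 2 to 9 over the 8 libraries. Others of the same lists were not, with Pdgfra at 95 to 149, Pdgfrb at 18 to 82 and Cspg4 at 374 to 622. The part that these lists have in the Hox values was not tested.

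The promoters of 1 gene per cluster show what the letters upstream of these genes look like. Each is the gene with the highest mean level in its cluster among those with an entry in the RefSeq promoter table (build GRCm38.p6), and the 250 bases before the transcript start are printed 5′ to 3′ on the strand of the gene. Hoxa10 is at chr6:52240855-52241104 on the minus strand, Hoxb4 at chr11:96318017-96318266, Hoxc4 at chr15:103034145-103034394 and Hoxd8 at chr2:74704365-74704614, the last 3 on the plus strand. The Hoxc4 transcript start used by RefSeq lies 15461 bases inside the gene as the deposited table bounds it. Capitals mark AGGTCA, a binding motif of nuclear receptors such as the retinoic acid receptors, on either strand (read as TGACCT where it lies on the opposite strand), and CCAAT, the CCAAT box.
Hoxa10: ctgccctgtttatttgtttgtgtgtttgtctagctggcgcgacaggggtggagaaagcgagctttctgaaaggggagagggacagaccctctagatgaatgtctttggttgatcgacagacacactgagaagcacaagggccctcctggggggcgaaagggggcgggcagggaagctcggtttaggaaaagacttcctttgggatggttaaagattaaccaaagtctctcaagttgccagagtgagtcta
Hoxb4: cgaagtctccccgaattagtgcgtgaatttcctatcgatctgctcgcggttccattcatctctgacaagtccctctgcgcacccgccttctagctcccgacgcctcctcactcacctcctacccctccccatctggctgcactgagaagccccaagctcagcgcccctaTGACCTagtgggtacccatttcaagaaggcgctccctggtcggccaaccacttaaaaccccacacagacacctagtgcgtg
Hoxc4: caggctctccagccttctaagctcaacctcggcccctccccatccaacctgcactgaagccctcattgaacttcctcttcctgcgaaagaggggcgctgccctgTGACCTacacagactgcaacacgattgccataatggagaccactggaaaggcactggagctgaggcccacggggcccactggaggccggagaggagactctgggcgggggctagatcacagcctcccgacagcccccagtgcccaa
Hoxd8: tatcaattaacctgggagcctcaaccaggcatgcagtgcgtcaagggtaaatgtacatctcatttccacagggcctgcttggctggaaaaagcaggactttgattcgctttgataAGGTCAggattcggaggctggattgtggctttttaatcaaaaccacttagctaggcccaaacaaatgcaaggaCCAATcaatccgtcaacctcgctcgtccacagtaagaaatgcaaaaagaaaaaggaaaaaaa
The Pbx-Hox site TGATTNAT was searched on both strands, as were AGGTCA and CCAAT. The TATA box, TATAAA, was searched likewise, and no match overlapped another in the sequences shown. AGGTCA was present in 4 of 16 Hox promoters (25.0%), those of Hoxb4, Hoxc4, Hoxd4 and Hoxd8, against 14.0% of 32851 promoters in the table. These 16 promoters belong to 15 of the Hox genes. TGATTNAT was present in 1 Hox promoter (6.25%), that of Hoxa2, and in 2.82% of all promoters. CCAAT was present in 8 Hox promoters (50.0%) and 33.8% of all promoters, and the TATA box in 3 Hox promoters (18.75%) and 12.4% of all promoters. Hoxa10 is counted for both through a promoter other than the one printed, which holds neither. The median number of CpG dinucleotides in the 250 bases was 12.5 in Hox promoters and 6 in all promoters. A match describes these letters and does not mark a site in use.

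The Hox genes as a family stayed close to their control level in Cre cells. Summed over the 31 genes, Hox reads stood at 6317, 5257, 5486 and 7225 in Cre libraries 1 to 4, against 6088, 5184, 5395 and 7014 in GFP libraries 1 to 4, and the ratio of Cre to GFP within a number was 1.01 to 1.04. Of the 31 genes, 28 passed the filter on low values (at least 1 CPM, or read per M reads of the library, in at least 4 libraries). Hoxb2, at 10 to 47 normalised reads, Hoxc12, at 0 to 10, and Hoxd4, at 1 to 6, did not pass and were not tested. In bulk RNA of this kind, fewer cells expressing a gene and less RNA per cell cannot be told apart.

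In the model without pairing, 0 of the 28 tested Hox genes passed the test between Cre and GFP (limma, Benjamini-Hochberg adjusted p under 0.05 over 12910 genes), against 1.08% of all genes tested (0.837% higher and 0.248% lower). Without adjustment of the p-values, Hoxc13 alone passed 0.05, which is 1 of 28, against 16.7% of all genes. The groups overlapped for every tested Hox gene, whereas 10.6% of all genes had groups without overlap. The log2 changes (Cre over GFP, on log2 of the value plus 1) ran from -0.32 for Hoxc5 to 0.85 for Hoxc13 with a median of 0.06, beside -0.00 for all genes, and 17 were above 0 and 11 below.

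Libraries with the same number resembled each other: their deviations from the means of their groups correlated at 0.820 to 0.908, against -0.597 to 0.477 for other pairs of libraries. The labels do not say what a shared number stands for, so the pairing rests on the values alone. In the paired model, which takes the number as a block, 4 Hox genes were higher in Cre, 0 were lower and 24 did not pass. The 4 of 28 called make 14.3%, below the 43.9% of all genes called in that model, and among higher calls the whole-table share was 22.2%. Among the 5299 genes within the range of mean levels of the Hox genes, 43.3% were called in either direction and 22.7% were higher. Leaving out number 1, 2, 3 or 4 in turn, the paired model called 2, 4, 1 and 3 Hox genes higher, against 20.5, 17.8, 19.2 and 17.3% of all genes.

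**Figure D1:**
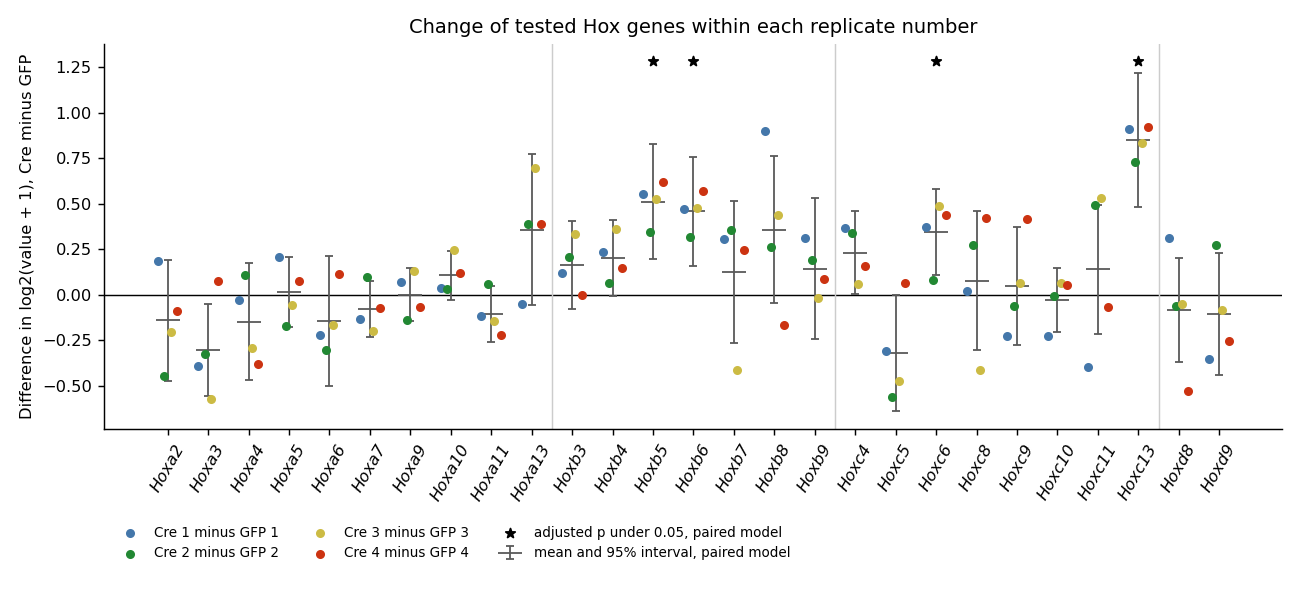
Difference in log2(value + 1), Cre minus GFP, of the tested Hox genes, ordered by cluster and paralogue number. Coloured points are the 4 same-numbered pairs, grey bars the mean and 95% confidence interval of the paired model, and stars the genes with an adjusted p under 0.05 there. Hoxc13 lies farthest from 0, at 0.85.

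Hoxc13, the most posterior HoxC gene and known for its role in hair and nail, had the largest change. It lies on chromosome 15 at 102921103 to 102928814 on the plus strand (GRCm38, ENSMUSG00000001655). It had 76, 77, 40 and 52 normalised reads in Cre libraries 1 to 4, against 40, 46, 22 and 27 in GFP libraries 1 to 4. Every Cre library exceeded the GFP library of its number, by 1.67 to 1.93 times, although Cre 3 lay below GFP 2, so the groups overlapped. The log2 change was 0.85 ± 0.17 in the paired model (SE, 95% interval 0.48 to 1.22, adjusted p = 0.00224) and had an SE of 0.32 without pairing (adjusted p = 0.247). It was called in all 8 variants of the paired model that were run, with adjusted p between 0.00204 and 0.0121, and in none of 15 unpaired ones, where it ran from 0.213 to 0.481. At these levels counting error is a larger share of each value than for the abundant Hox genes. The other paralogue of group 13, Hoxa13, which patterns the digits, had 28, 37, 46 and 105 normalised reads in Cre libraries 1 to 4, against 29, 28, 28 and 80 in GFP libraries 1 to 4, and did not pass (log2 change 0.36, paired adjusted p = 0.149). Summed, group 13 gave 104, 114, 86 and 157 in Cre and 69, 74, 50 and 107 in GFP, a ratio of 1.47 to 1.72.

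Hoxb5 and Hoxb6, neighbours in the middle of HoxB known for roles along the neck and thorax, were the HoxB genes called in the paired model. Hoxb5 (chromosome 11, 96303512 to 96306120, plus strand) had 165, 79, 130 and 22 normalised reads in Cre libraries 1 to 4, against 112, 62, 90 and 14 in GFP libraries 1 to 4. The log2 change of Hoxb5 was 0.51 ± 0.14 (SE, paired adjusted p = 0.0146, without pairing 0.810), and it was higher in 4 of 4 pairs. Hoxb6 (chromosome 11, 96292476 to 96301569, plus strand) had 100, 96, 145 and 45 normalised reads in Cre libraries 1 to 4, against 72, 77, 104 and 30 in GFP libraries 1 to 4. The log2 change of Hoxb6 was 0.46 ± 0.13 (SE, paired adjusted p = 0.0183, without pairing 0.682), again with 4 of 4 pairs higher. For both genes the difference between numbers was larger than that between viruses, and the groups overlapped. The Hoxb5 call was lost without number 1 or number 3 (adjusted p up to 0.0597) and the Hoxb6 call without number 3 or number 4 (adjusted p up to 0.0668). Both genes overlap the antisense gene Hoxb5os, with a mean of 20.4 normalised reads, and whether counting used the strand is not stated, so reads of these genes cannot be assigned to a single one with certainty.

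Hoxc6, a gene of the thoracic region, was the remaining call. It lies on chromosome 15 at 103009573 to 103011881 on the plus strand and had 280, 129, 100 and 370 normalised reads in Cre libraries 1 to 4, against 216, 122, 71 and 273 in GFP libraries 1 to 4. The log2 change was 0.34 ± 0.11 (SE, paired adjusted p = 0.0231, without pairing 0.812), higher in 4 of 4 pairs. The groups overlapped widely, and the call was lost without number 1, 3 or 4 (adjusted p up to 0.115). Summed over Hoxa6, Hoxb6 and Hoxc6, paralogue group 6 gave 427, 267, 294 and 479 in Cre and 343, 251, 230 and 362 in GFP, a ratio of 1.06 to 1.32. Hoxa6 itself had a log2 change of -0.14 and did not pass (95% interval -0.50 to 0.21), and the difference between the paralogues was not tested.

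The HoxA cluster, on chromosome 6, contributed most of the Hox reads in every library. Its sum was 3658, 2987, 3354 and 3865 in Cre libraries 1 to 4, against 3695, 3103, 3480 and 3915 in GFP libraries 1 to 4, a ratio of 0.963 to 0.990 within numbers. Of its 11 genes 4 had a log2 change above 0 and 7 below, and none passed in either model. Hoxa10, its most abundant member by reads and a gene of the lumbar region and upper limb segment, had 845, 596, 612 and 1116 normalised reads in Cre libraries 1 to 4, against 824, 584, 517 and 1029 in GFP libraries 1 to 4. The 2 groups covered nearly the same range, although Cre was higher in 4 of 4 pairs. Its log2 change was 0.11 ± 0.06 (SE, paired adjusted p = 0.184, 95% interval -0.03 to 0.24).

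Hoxa9 and Hoxa11 showed the same closeness of the viruses. Hoxa9, which also acts in blood progenitors, had a mean of 668 ± 131 in Cre and 669 ± 139 in GFP (SD over 4 libraries here and below). Hoxa11, a gene of the middle limb segment, had a mean of 519 ± 149 in Cre and 568 ± 197 in GFP. Hoxa11 overlaps its antisense transcript Hoxa11os, which averaged 190.0 ± 50.1 in Cre and 194.0 ± 44.0 in GFP and had a log2 change of -0.04. Further towards the anterior end, Hoxa5, a gene of the neck and lung, averaged 320 ± 82.7 in Cre and 318 ± 86.4 in GFP.

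Hoxa3, which is needed for thymus and parathyroid, had the lowest change of HoxA. It had 164, 200, 247 and 137 normalised reads in Cre libraries 1 to 4, against 215, 251, 367 and 130 in GFP libraries 1 to 4. Cre was lower for numbers 1 to 3 and slightly higher for number 4, and the groups overlapped. The log2 change was -0.30 ± 0.11 (SE, paired adjusted p = 0.0531). It passed the test as lower in Cre when number 4 was left out, and in the paired model with voom or with equal totals. Hoxa3 as annotated spans Hoxa4, Hoxa5 and Hoxa6 on the same strand, so its reads and theirs may not be separable. Hoxa2, Hoxa4 and Hoxa7 had log2 changes of -0.14, -0.15 and -0.08 and did not pass.

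HoxB, on chromosome 11 between 96271457 and 96354012, was higher in Cre within every number. Its sum was 1150, 729, 1125 and 379 in Cre libraries 1 to 4, against 922, 634, 923 and 337 in GFP libraries 1 to 4, with ratios of 1.12 to 1.25. All 7 tested genes had a log2 change above 0, with a median of 0.20, and 2 of the 7 were called in the paired model, beside 43.9% of all genes called and 22.2% called higher. The most abundant, Hoxb4, known for expanding blood stem cells, had 437, 209, 294 and 92 normalised reads in Cre libraries 1 to 4, against 371, 200, 229 and 83 in GFP libraries 1 to 4. Each Cre library lay above its GFP partner, but the groups overlapped almost entirely. The log2 change was 0.20 ± 0.09 (SE, paired adjusted p = 0.106). Hoxb8 averaged 82.8 ± 33.1 in Cre and 61.8 ± 18.6 in GFP (log2 change 0.36, paired adjusted p = 0.136) and was called higher only when number 4 was left out. Hoxb3, Hoxb7 and Hoxb9 had log2 changes of 0.17, 0.12 and 0.14 and did not pass.

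HoxC, on chromosome 15 between 102921103 and 103036852, had sums of 1234, 1025, 582 and 2892 in Cre libraries 1 to 4, against 1216, 940, 547 and 2641 in GFP libraries 1 to 4, with ratios of 1.01 to 1.10. Hoxc10, a gene of the lumbar region and hindlimb and the most abundant HoxC gene, had 349, 321, 113 and 1195 normalised reads in Cre libraries 1 to 4, against 408, 323, 108 and 1152 in GFP libraries 1 to 4. The 2 viruses gave the same order of numbers and almost the same values, while the highest number stood 10.6 times above the lowest in Cre and 10.7 times in GFP. Its log2 change was -0.03 ± 0.08 (SE, 95% interval -0.21 to 0.15, paired adjusted p = 0.797). Hoxc4 was higher in 4 of 4 pairs, with means of 185 ± 33.0 in Cre and 157 ± 28.0 in GFP (log2 change 0.23, paired adjusted p = 0.0916). Hoxc5 had the lowest change of all tested Hox genes, with means of 82.5 ± 34.4 in Cre and 99.0 ± 19.7 in GFP (log2 change -0.32, paired adjusted p = 0.0973). Hoxc8, Hoxc9 and Hoxc11 had log2 changes of 0.08, 0.05 and 0.14 and did not pass.

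HoxD, on chromosome 2, was represented mainly by Hoxd8 and Hoxd9. Hoxd8 (74704615 to 74707933, plus strand), a gene of the trunk, had 200, 361, 324 and 62 normalised reads in Cre libraries 1 to 4, against 161, 377, 336 and 90 in GFP libraries 1 to 4. The sign of the difference was not the same in all numbers, and the log2 change was -0.08 ± 0.13 (SE, 95% interval -0.37 to 0.20, paired adjusted p = 0.631). Hoxd9 averaged 86.0 ± 52.6 in Cre and 87.2 ± 40.7 in GFP and did not pass (log2 change -0.11). The cluster sum was 275, 516, 425 and 89 in Cre libraries 1 to 4, against 255, 507, 445 and 121 in GFP libraries 1 to 4, with ratios of 0.736 to 1.08.

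**Figure D2:**
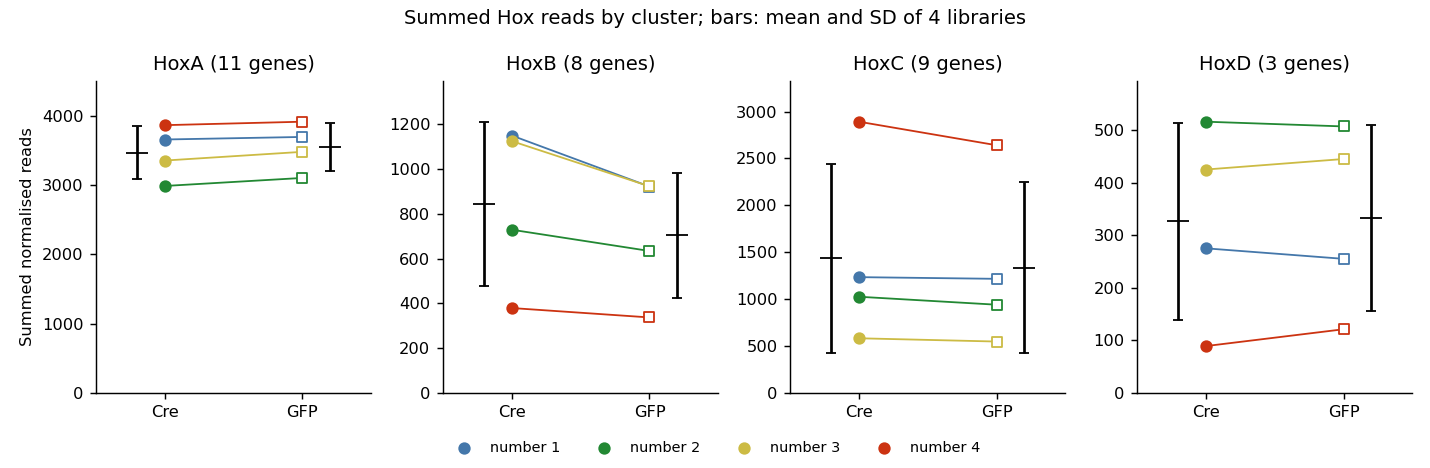
Summed normalised reads of each Hox cluster in every library, with Cre left and GFP right in each panel, lines joining libraries of the same number, and black bars giving the mean and SD of 4 libraries. HoxB is higher in Cre for every number, and number 4 is highest for HoxC and lowest for HoxB and HoxD with both viruses.

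The larger difference in Hox levels was between the replicate numbers and not between the viruses. The test of the number was chosen after these values had been seen. With the virus in the model, the number term passed for 26 of 28 Hox genes (92.9%; limma, Benjamini-Hochberg adjusted p under 0.05), against 66.4% of all genes tested and 62.9% of genes within the range of mean levels of the Hox genes. The 2 that did not pass were Hoxa6 and Hoxa7. The SD over the 4 numbers, on the log2 scale, had a median of 0.53 over the tested Hox genes and 0.20 over all genes, with 0.26 for genes in the same range of means. That SD was larger than the size of the Cre to GFP change for 27 of the 28 tested Hox genes, the exception being Hoxc13, and for 58.2% of all genes.

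**Figure D3:**
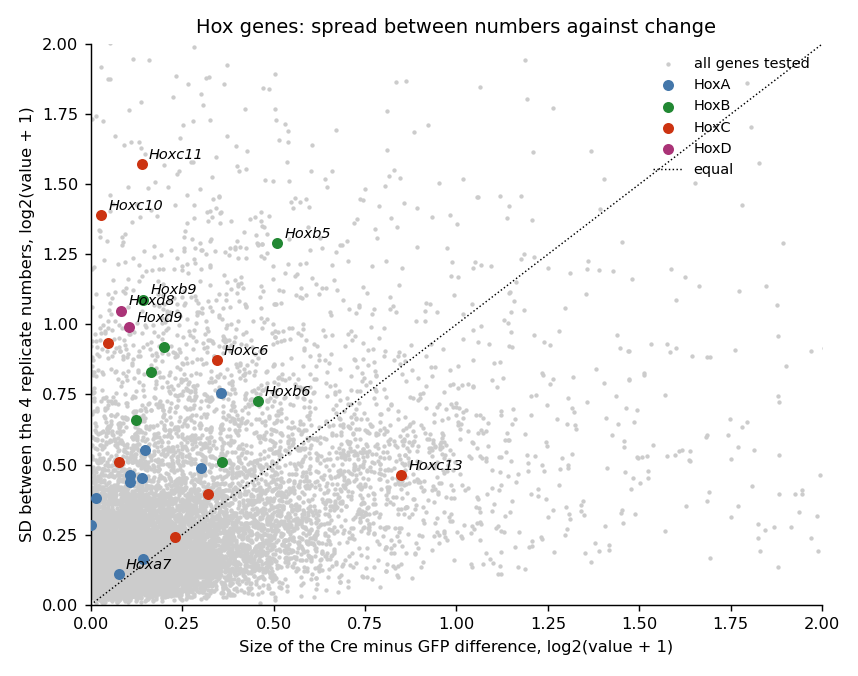
SD of log2(value + 1) between the 4 numbers (vertical axis) against the size of the Cre minus GFP difference (horizontal axis), in grey for all tested genes but 102 that lie outside the axes, in colour by cluster for Hox genes, with a dotted line where both are equal. Hox genes lie higher than most genes, with a median SD of 0.53 against 0.20, and among Hox genes only Hoxc13 lies below the line.

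Over the Hox genes, number 4 differed most from the other numbers, with both viruses. For HoxC, all tested genes but Hoxc13 were highest in number 4 in both groups, which is 7 of 8. For HoxB, 6 of 7 tested genes were lowest in number 4 in both groups, and both tested HoxD genes were too. Within HoxA the posterior genes Hoxa9, Hoxa10, Hoxa11 and Hoxa13, together with Hoxa6, were highest in number 4 in both groups, and Hoxa2, Hoxa3, Hoxa5 and Hoxa7 were among those that were lowest. Over all 28, number 4 was highest for 12, lowest for 13 and neither for 3, namely Hoxa4, Hoxb9 and Hoxc13. The same counts over all genes are not given here, so how far this pattern is particular to Hox genes was not tested.

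Among the genes that were high in number 4, Hoxc9, Hoxc10 and Hoxc11 stood furthest above the other numbers, by 1.72, 2.30 and 2.80 on the log2 scale, while Hoxb5 stood at -2.46 and Hoxd8 at -1.89. Hoxc11, a gene of the sacral region and hindlimb, had 122, 113, 51 and 569 normalised reads in Cre libraries 1 to 4, against 161, 80, 35 and 597 in GFP libraries 1 to 4. Hoxc9, a thoracic gene, had 69, 67, 43 and 231 in Cre libraries 1 to 4, against 81, 70, 41 and 173 in GFP libraries 1 to 4. With the Hoxc10 values given above, number 4 was the highest and number 3 the lowest for all 3 genes with both viruses. The adjusted p of the number term was 4.47e-08 for Hoxc10, 1.85e-06 for Hoxc11 and Hoxb4 alike, and 3.3e-06 for Hoxb5.

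As a share of all Hox reads, HoxC made up 40.0% in Cre 4 and 37.7% in GFP 4, and between 10.1 and 20.0% in the other 6 libraries. HoxB made up 5.25% in Cre 4 and 4.80% in GFP 4, and between 12.2 and 20.5% elsewhere. Paralogues 9 to 13 made up 67.3% in Cre 4 and 68.5% in GFP 4, and between 35.8 and 49.8% elsewhere. Number 3 stood at the other end, with the lowest share of HoxC and of paralogues 9 to 13 with either virus.

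**Figure D4:**
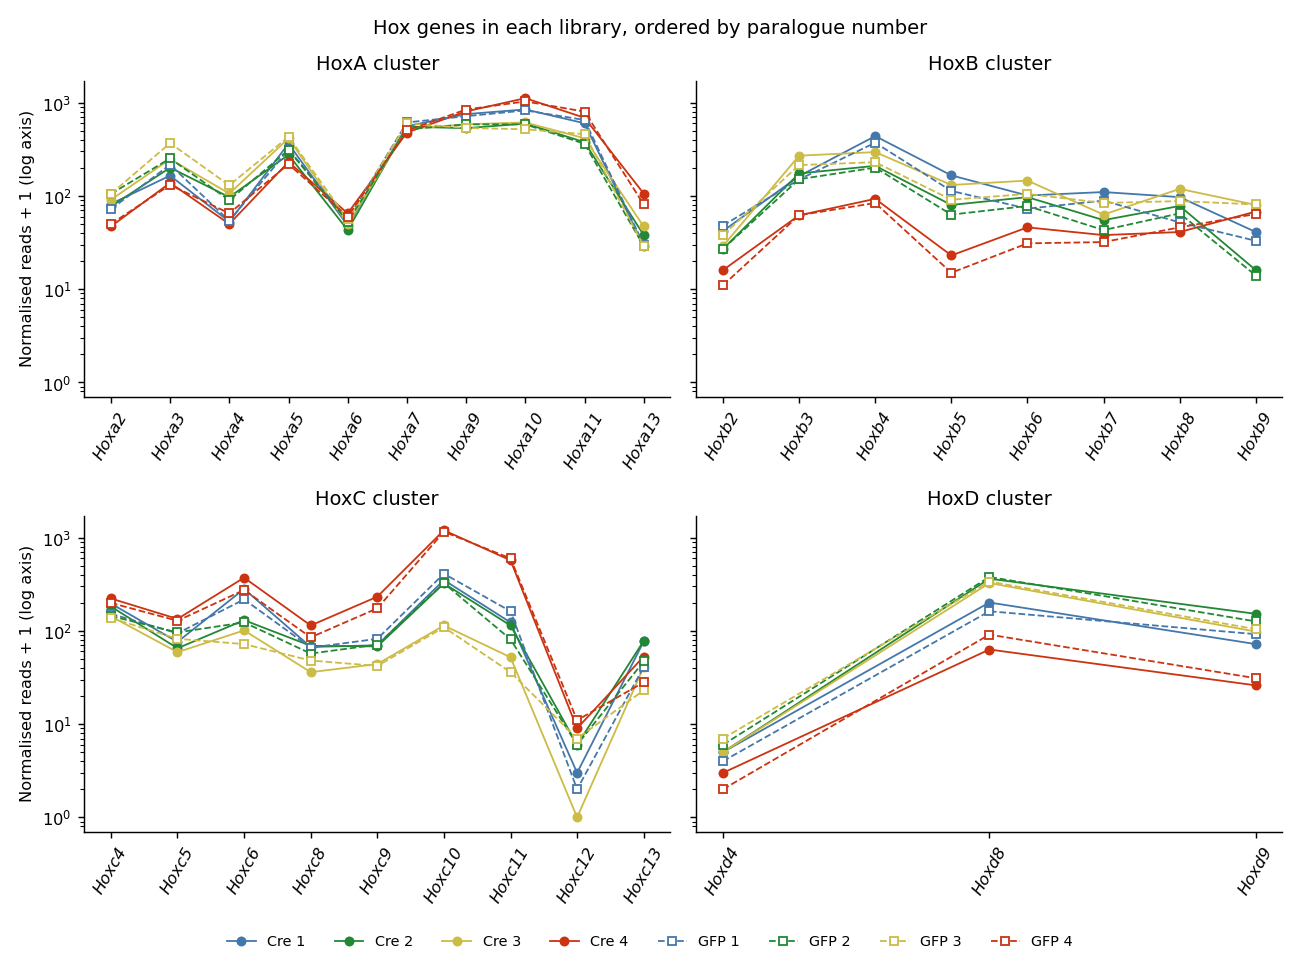
Normalised reads plus 1 of the Hox genes in each of the 8 libraries on a log axis, by cluster and paralogue number, with filled circles and full lines for Cre, open squares and dashed lines for GFP, and a colour for each number. The Cre and GFP points of a number lie together, and number 4 is high for most HoxC genes and low for most HoxB and HoxD genes.

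The distance between libraries over the 28 tested Hox genes, taken as the mean absolute difference of log2 levels, was 0.243 to 0.300 between Cre and GFP of the same number (4 pairs). It was 0.458 to 1.36 between libraries of the same virus and 0.499 to 1.42 between libraries that shared neither (12 pairs each). In all 8 libraries the nearest other library was the one of the same number. Without number 4 the number term still passed for 19 of 28 Hox genes, against 46.4% of all genes, and the median SD was 0.36, against 0.16 for all genes. Without number 1 or number 2 it passed for 26, against 47.6% and 61.4% of all genes, and without number 3 for 23, against 65.7%.

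Other values moved with the numbers as well. GFP 4 was the most deeply sequenced library. Xist, transcribed from the inactive X of females, was at 45132, 2, 8 and 45659 in Cre libraries 1 to 4, against 40670, 5, 12 and 49984 in GFP libraries 1 to 4, so numbers 1 and 4 carried the female transcript and numbers 2 and 3 the Y-linked Ddx3y. Over the Hox genes, Cre 4 lay at a mean distance of 0.996, 1.14 and 1.36 from Cre 1, 2 and 3. GFP 4 lay at 0.857, 1.08 and 1.33 from GFP 1, 2 and 3, so number 1 was the nearest to number 4 with both viruses. Number 1 itself lay nearer to numbers 2 and 3 than to number 4. Cre 1 was at 0.458 and 0.637 from Cre 2 and 3, and GFP 1 at 0.466 and 0.684 from GFP 2 and 3. Myf5, a myogenic factor, was at 347, 334, 298 and 1262 in Cre libraries 1 to 4, against 575, 453, 444 and 1816 in GFP libraries 1 to 4, and was singled out after its values were seen. The part of sex, depth and Myf5 level in the Hox differences between numbers was not tested.

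Levels can be compared between genes only per length of exon. By the mean over libraries per kilobase of exon, Hoxc10 (259.9), Hoxa11 (238), Hoxa10 (234), Hoxa7 (188) and Hoxa5 (169.8) were the highest Hox genes, followed by Hoxa9 (119.8) and Hoxc11 (107). The lowest were Hoxd4 (1.23), Hoxc12 (4.49) and Hoxb2 (8.24). The place of Hoxc10 rested on number 4: without those libraries its level was 142 per kilobase, below Hoxa11 (208), Hoxa10 (203), Hoxa7 (194) and Hoxa5 (187). Hoxa11 and Hoxa10 differed by less than their spread over libraries.

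Genes of the TALE homeodomain class, among them the Pbx and Meis cofactors that bind DNA together with Hox proteins, were next described as a list. In the unpaired model 0 of 10 tested genes passed, and in the paired model 6 were higher in Cre, 2 lower and 2 did not pass, beside 22.2% of all genes higher and 21.7% lower. Meis1 had 268, 255, 307 and 328 normalised reads in Cre libraries 1 to 4, against 194, 179, 219 and 203 in GFP libraries 1 to 4, with no overlap between groups (log2 change 0.54 ± 0.09, SE, paired adjusted p = 0.000719, without pairing 0.0999). Pbx2 had 1611, 1668, 1488 and 1854 in Cre libraries 1 to 4, against 1195, 1262, 1230 and 1517 in GFP libraries 1 to 4 (log2 change 0.35, paired adjusted p = 0.000333). Meis3 had a log2 change of 0.39 (paired adjusted p = 0.000938). Their relatives Meis2 and Pbx3 were the 2 called lower, with log2 changes of -0.28 and -0.21 (paired adjusted p = 0.00948 and 0.0318). These 2 genes were picked after their values were seen. The median change of the list was 0.22.

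Retinoic acid induces anterior Hox genes in the embryo, and 12 genes of its synthesis, breakdown, transport and receptors were tested. None passed without pairing, and 6 were higher and 1 lower in the paired model, where 22.2% of all genes were higher and 21.7% lower. Aldh1a3, an enzyme that makes retinoic acid, had 58, 88, 79 and 57 normalised reads in Cre libraries 1 to 4, against 9, 42, 28 and 13 in GFP libraries 1 to 4 (log2 change 1.78 ± 0.25, SE, paired adjusted p = 0.000309, without pairing 0.120). Crabp2, which carries retinoic acid to its receptors, had 905, 1152, 965 and 524 in Cre libraries 1 to 4, against 328, 577, 466 and 160 in GFP libraries 1 to 4 (log2 change 1.30 ± 0.11, SE, paired adjusted p = 1.6e-05, without pairing 0.182). The Aldh1a3 groups did not overlap, while the Crabp2 groups did, through Cre 4 and GFP 2. The other Aldh1a genes of the list did not rise alike. Aldh1a2, under the filter, had 4, 18, 35 and 1 in Cre 1 to 4, against 25, 32, 63 and 8 in GFP 1 to 4. Aldh1a1 did not pass (log2 change 0.24, paired adjusted p = 0.321). Both were picked after their values were seen. Rxrb, a receptor partner, had a log2 change of -0.29 (paired adjusted p = 0.0029).

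The lists of Polycomb and trithorax regulators of Hox genes, which are selections and not complete sets, were both tested in full. Of 15 Polycomb genes, 0 passed without pairing, and 1 was higher, 7 lower and 7 not called in the paired model, which called 43.9% of all genes and 21.7% as lower. Ezh2, the methyltransferase of Polycomb repressive complex 2, had 1606, 2293, 2607 and 2856 normalised reads in Cre libraries 1 to 4, against 3061, 3646, 3941 and 4913 in GFP libraries 1 to 4. The groups did not overlap, and the log2 change was -0.74 ± 0.06 (SE, paired adjusted p = 9.52e-06, without pairing 0.131). Bmi1 and Phc2, of Polycomb repressive complex 1, had log2 changes of -0.24 (paired adjusted p = 0.00112) and -0.18 (paired adjusted p = 0.00967). Of 11 trithorax genes, 0 passed without pairing, and 1 was higher, 2 lower and 8 not called in the paired model, again beside 43.9% of all genes called. The trithorax calls were Kdm6b, a demethylase that removes the Polycomb mark, at 0.42 (adjusted p = 6.47e-05), and Wdr5 at -0.26 and Dpy30 at -0.27, core subunits of the MLL complexes (adjusted p = 0.00127 and 0.0242).

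**Figure D5:**
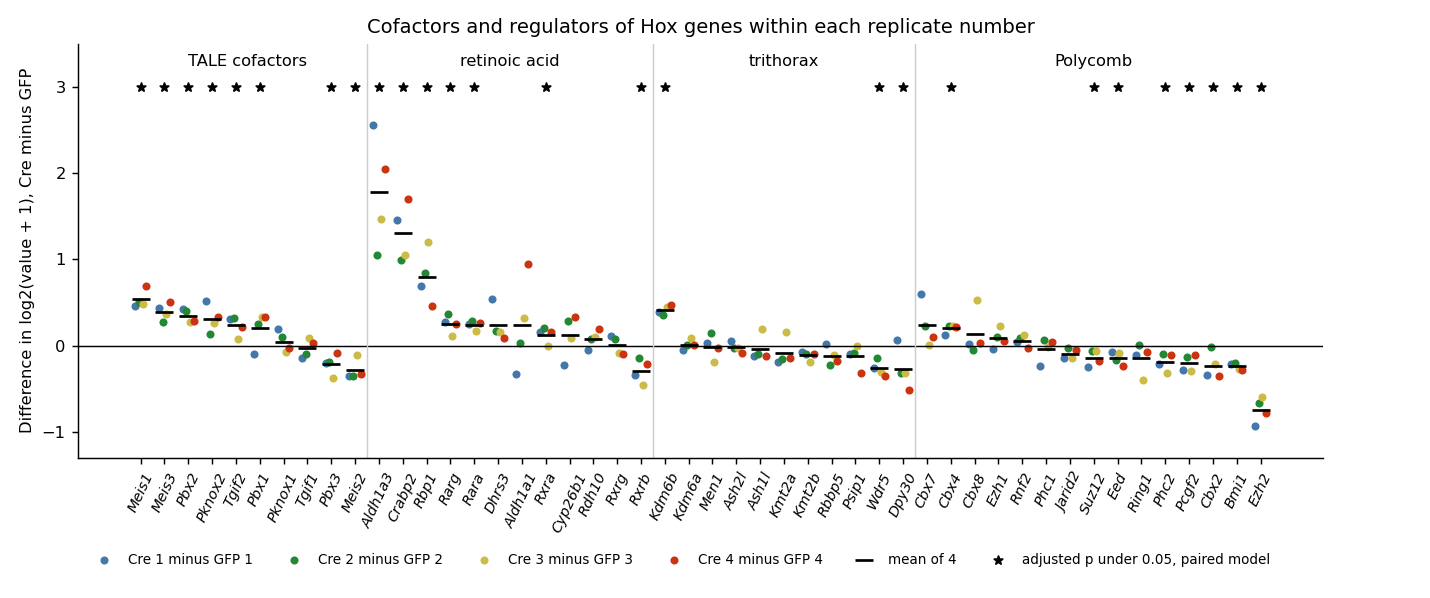
Difference in log2(value + 1), Cre minus GFP, for the tested genes of the TALE, retinoic acid, trithorax and Polycomb lists, with coloured points for the 4 same-numbered pairs, black bars for their mean and stars for an adjusted p under 0.05 in the paired model. Aldh1a3 and Crabp2 stand highest, at 1.78 and 1.30, and Ezh2 lowest, at -0.74.

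Other factors that mark position were described in the same way. Of 10 tested limb and body wall factors, 0 passed without pairing, and 3 were higher, 1 lower and 6 not called in the paired model, close to the 43.9% of all genes called. The number term passed for 10 of 10, against 66.4% of all genes. Tbx4, a hindlimb factor, had 80, 125, 88 and 159 normalised reads in Cre libraries 1 to 4, against 74, 77, 68 and 91 in GFP libraries 1 to 4 (log2 change 0.49, paired adjusted p = 0.0203). Tbx15 had a log2 change of 0.43 (paired adjusted p = 0.00047), and Tbx3 had 0.23 and did not pass. Pitx1, which specifies the hindlimb, was at 0 to 8 in Cre and 0 to 6 in GFP and was not tested. It was picked after its values were seen, as were Emx2 and Tbx18. Emx2, a factor of the shoulder girdle that did not pass the filter, was at 32, 26, 23 and 1 in Cre libraries 1 to 4, against 34, 22, 26 and 1 in GFP libraries 1 to 4, and Tbx18 was at 154, 184, 187 and 35 in Cre libraries 1 to 4, against 245, 276, 258 and 47 in GFP libraries 1 to 4. Tbx18, a T-box factor, was the gene called lower (log2 change -0.53, paired adjusted p = 0.00245). Both were lowest in number 4 with either virus, as 6 of the 7 tested HoxB genes were.

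Of the head muscle factors, 2 were tested and 0 passed in either model. Tbx1 had a log2 change of 0.15 (paired adjusted p = 0.118). Of 11 somite and limb muscle precursor factors, 0 passed without pairing, and 4 were higher, 3 lower and 4 not called in the paired model, against 43.9% of all genes called. The number term passed for 11 of 11, against 66.4% of all genes. Gdf11, a signal that sets the trunk to tail transition of Hox expression in the embryo, had 2617, 1790, 1617 and 2305 in Cre libraries 1 to 4, against 1396, 1148, 1129 and 1306 in GFP libraries 1 to 4. The groups did not overlap (log2 change 0.72 ± 0.06, SE, paired adjusted p = 2.29e-05, without pairing 0.0870). Eya2 had a log2 change of 0.59 (paired adjusted p = 0.000152) and Six2 of -0.55 (paired adjusted p = 0.00272). None of 10 listed ParaHox and Evx genes was among the rows analysed here.

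The Hox loci themselves gave further transcripts. Of 4 tested non-coding RNAs of the clusters, 0 passed in either model, with Hotairm1 at 0.28, Hoxb3os at 0.33 and Hoxaas2 at 0.15. Hotair, transcribed within HoxC from the strand opposite to the genes, was under the filter, with 27, 9, 11 and 105 normalised reads in Cre libraries 1 to 4, against 27, 17, 13 and 98 in GFP libraries 1 to 4. It was highest in number 4 with both viruses, as Hoxc11 next to it was. Of 12 tested genes that flank the clusters, 0 passed without pairing, and 1 was higher, 3 lower and 8 not called in the paired model, where 43.9% of all genes were called. Calcoco1, on the HoxC side, had a log2 change of 0.26 (paired adjusted p = 0.00417). Cbx5, beyond the other end of HoxC, was lower, at -0.29 (paired adjusted p = 0.00167), and was picked after its values were seen. Cbx1, on the HoxB side, had a log2 change of -0.24 (paired adjusted p = 0.00386). Lnpk, on the HoxD side, had -0.14 (paired adjusted p = 0.0522) and did not pass.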

How the data were processed

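RNA of 8 libraries was sequenced from a stranded library preparation, per the labels. The submitters' processing notes name STAR 2.5.3a, featureCounts 1.5.3 of Subread, DESeq and the builds mm10 and GRCm38. Their settings, the annotation release and the strand setting of counting are not stated there. The authors deposited whole numbers per gene, already normalised and rounded, which are treated as a score and not as raw reads. The design allowed for raw counts, and the test named for normalised values was used. Genes with at least 1 CPM in at least 4 libraries were tested (12910). The test was limma (version 3.58.1, R 4.3.3) with its trend option on log2 of the value plus 1, a scale that understates changes of low genes. All p-values are two-sided, with Benjamini-Hochberg adjustment over all genes tested and a threshold of 0.05. The replicate number was used as a block in a second, paired model, since same-numbered libraries correlated at 0.820 to 0.908. Results of the paired model are printed for most named genes, also where they do not change a call. A moderated F test of the number, with the virus in the model, was added after the values were seen.

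Groups and numbers came from the sample titles. Named genes were all Hox genes called in either model, the most abundant Hox gene of each cluster, and up to 3 tested members of each other list with the smallest unadjusted p. Members and lists were chosen with earlier results of these data known. P-values weigh each change against the spread between these libraries. In the paired model that is the spread left once the numbers are taken out. The printed intervals are those of the paired model, so they leave out the spread between numbers. Reads are not independent molecules. Replicates of a group differed by more than sampling noise (chi-square per degree of freedom 18.3 to 125), and all were kept. Coordinates are those of the table, of which 21 of 31 Hox genes have the same in GENCODE M21. Tests were tested on simulated data. Promoters came from RefSeq (GRCm38.p6). Tables and figures used Python 3.11.15 with pandas 2.3.3 and matplotlib 3.10.9. A few genes enter the fits and counts and are not reported here. Other pseudocounts (0.1 and 5), filters, scalings, voom and left-out libraries were tried.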

Additional observations from a re-analysis of the deposited data

Results flagged for a closer look

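In the 56 groups of 4 libraries formed by the 28 tested Hox genes and the 2 viruses, 3 had a library that stood far from the other 3, each time number 4. Chance flags about 1 in 20 such groups, and 3 of 56 is close to that share. The flags restate high values of number 4 given above and add no separate support. Hoxa13 stood at 80 normalised reads in GFP 4, against 28 to 29 in the other GFP libraries. Hoxc9 stood at 231 in Cre 4, against 43 to 69 in the other Cre libraries. Hoxc11 stood at 569 in Cre 4, against 51 to 122 in the other Cre libraries. In each case the number 4 library of the other virus was the highest of its group as well, at 105 for Hoxa13 in Cre 4, 173 for Hoxc9 in GFP 4 and 597 for Hoxc11 in GFP 4.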

How the results depend on the processing

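No Hox gene passed in any unpaired setting. With the replicate block, 4 Hox genes were higher and 0 lower, where 22.2% of all genes were higher and 21.7% lower. The block with voom gave 4 and 1, the block without a filter 4 and 0, and the block with equal totals 4 and 1. Leaving out number 1, 2, 3 or 4 from the paired model gave 2, 4, 1 and 3 higher and 0 to 1 lower, and leaving out single libraries from the unpaired model gave 0 in both directions. Genes of the other lists were 22 higher and 19 lower with the block, beside the same 22.2% and 21.7% of all genes. They were 19 and 22 with block and voom, 21 and 18 with block and no filter, and 19 and 22 with block and equal totals. With the block and without a number they were 16 to 20 and 13 to 15 (14 without number 1 or 2). Without pairing they were 0, also with voom, without a filter or with a single library left out. Over the whole table the counts were 108 higher and 32 lower without pairing, 58 higher with a filter of 5 CPM, 10 to 51 higher and 1 to 7 lower without a library, 2861 and 2804 with the block, 2612 and 3199 with block and voom, 3123 and 2538 with block and no filter, 2607 and 3157 with block and equal totals, and 2648, 2304, 2482 and 2238 higher and 2100 to 2379 lower (2365 without number 1 and 2289 without number 2) with the block and without number 1, 2, 3 or 4. The number term passed for 26 Hox genes, and for 19 to 26 without a number. The cause of these differences was not tested.

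Changes whose sign turned did so in settings that leave out a library from the unpaired model or a number from the paired model. Leaving out a single library unbalances the numbers, and leaving out a whole number does not. The cause of these turns was not tested. Without 1 library the log2 change of Hoxb5 ran from -0.12 to 1.11, Hoxc6 from -0.013 to 0.65, Hoxa10 from -0.0745 to 0.28, Hoxb4 from -0.20 to 0.62, Hoxc10 from -0.62 to 0.53, Hoxd8 from -0.48 to 0.46, Tbx1 from -0.14 to 0.37 and Hoxaas2 from -0.091 to 0.42. In the paired model without a number, Hoxc10 ran from -0.06 to 0.036, the highest without number 1, and Hoxd8 from -0.22 to 0.0655, the highest without number 4. The other alternatives for the named genes gave 577 values on the same side of the threshold and 176 that passed it where the unpaired model did not.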
